A study of Mus musculus with 6 samples.

Results

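The genes followed here, 10 members of the TAZ and YAP pathway, were measured in cultured mouse bone marrow stromal cells: the coactivators Wwtr1 (which encodes TAZ) and Yap1, the DNA-binding partners Tead1 and Tead2, the target genes Ctgf, Cyr61 and Ankrd1, and the adaptors Amotl1, Amotl2 and Ajuba. They were taken by the gene name written beside each probe of the arrays, out of 15371 named genes with a tested probe. They had 14 of the 56605 non-control probes, and all 14 were among the 28607 that could be tested. Wwtr1, Ctgf, Cyr61, Ankrd1, Amotl1, Amotl2 and Ajuba had 1 probe each, Yap1 and Tead2 had 2 each, and Tead1 had 3. The 4 probes named Taz belong to tafazzin, a mitochondrial phospholipid enzyme gene, and were not counted.

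The study asked how gene expression differs when the long non-coding RNA gene NONMMUT002667 is knocked out. The KO group held 3 samples from NONMMUT002667-KO mice and the WT group 3 samples from wildtype mice, all labelled male, with 1 Cy3-labelled Agilent array each. Cells of crushed, collagenase-digested femurs were sorted as Sca-1 positive, CD29 positive, CD45 negative and CD11b negative and were then grown to the first passage, so the arrays show cultures and not the sorted cells. The mutant allele, the strain, the age and the number of mice behind a sample are not given in the sources used here. The p-values set the difference of KO and WT against the spread between samples within each group. Whether this is a spread between single mice is therefore not known.

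TAZ and YAP are related coactivators that cannot bind DNA themselves. When the Hippo kinases MST1/2 and LATS1/2 are quiet, for example in spread cells on stiff matrix, they enter the nucleus and switch on genes through TEAD factors, whose core element is CATTCC. Phosphorylation by LATS kinases holds both proteins in the cytoplasm, so much of their control acts on protein and not on RNA. In mesenchymal stem cells TAZ is also known as a partner of Runx2, which it helps to activate osteoblast genes, and of Pparg, which it restrains.

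The element CATTCC was searched on both strands in the 250 bases before each gene's start, as given by RefSeq for GRCm38.p6. A window was at hand for 8 of the 10 genes, and 6 of these held the element, against 14.4% of the 27025 genes with a window. The 6 were Wwtr1, Yap1, Cyr61, Ankrd1, Amotl2 and Ajuba, with 2 matches each in Ankrd1 and Ajuba, while the windows of Tead2 and Amotl1 held no match. Windows of 5 of the 6 are shown because they hold the letters of the TEAD core element. Capitals mark CATTCC, or GGAATG where it lies on the other strand. For Wwtr1, 1 of 2 listed starts is shown. A match of letters does not show that a factor binds there.
Cyr61 promoter, chr3:145649986-145650235, minus strand: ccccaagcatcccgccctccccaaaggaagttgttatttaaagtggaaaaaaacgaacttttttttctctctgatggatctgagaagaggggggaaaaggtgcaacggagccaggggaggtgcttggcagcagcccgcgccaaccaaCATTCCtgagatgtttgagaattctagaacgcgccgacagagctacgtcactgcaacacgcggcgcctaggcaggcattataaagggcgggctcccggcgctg
Ankrd1 promoter, chr19:36119845-36120094, minus strand: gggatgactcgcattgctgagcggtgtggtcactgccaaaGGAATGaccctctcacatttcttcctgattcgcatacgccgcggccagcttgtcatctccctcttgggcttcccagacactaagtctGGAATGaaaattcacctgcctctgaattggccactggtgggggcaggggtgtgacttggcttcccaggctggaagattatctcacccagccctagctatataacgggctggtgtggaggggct
Amotl2 promoter, chr9:102717554-102717803, plus strand: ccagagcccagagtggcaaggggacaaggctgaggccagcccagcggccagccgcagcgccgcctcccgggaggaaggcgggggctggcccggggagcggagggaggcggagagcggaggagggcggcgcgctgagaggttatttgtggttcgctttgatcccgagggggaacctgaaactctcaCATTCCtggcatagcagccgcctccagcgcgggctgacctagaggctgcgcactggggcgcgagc
Ajuba promoter, chr14:54577662-54577911, minus strand: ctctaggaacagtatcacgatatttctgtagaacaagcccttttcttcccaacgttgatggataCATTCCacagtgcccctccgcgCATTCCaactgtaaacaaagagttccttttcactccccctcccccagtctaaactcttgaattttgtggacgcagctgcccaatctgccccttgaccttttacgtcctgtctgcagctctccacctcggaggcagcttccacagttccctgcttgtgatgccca
Wwtr1 promoter, chr3:57575911-57576160, minus strand: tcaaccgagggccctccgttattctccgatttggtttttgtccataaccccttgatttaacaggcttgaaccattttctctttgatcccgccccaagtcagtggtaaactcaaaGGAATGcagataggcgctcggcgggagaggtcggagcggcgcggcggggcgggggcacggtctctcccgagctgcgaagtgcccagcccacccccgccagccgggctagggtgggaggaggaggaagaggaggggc
The match lay 103 bases before the start in Cyr61, 65 in Amotl2 and 136 in Wwtr1. In Ankrd1 the matches lay 210 and 123 bases before the start, and in Ajuba 186 and 164 bases.

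The share of spots above background was 49.0% to 53.02% on the KO arrays and 54.3% to 56.7% on the WT arrays. Per the file headers all 6 arrays lay on 1 slide, the KO arrays in row 2 and the WT arrays in row 1, so row and genotype cannot be told apart. The knocked-out RNA was not checked: 0 probes carried a NONMMUT name, and probes were not searched by genomic position. KO replicate 1 and WT replicate 3 went against the label male: the inactive X transcript Xist was well above background on these 2 arrays (-0.36 and -0.53) and not on the other 4 (-6.84 to -5.86), and the Y-linked Eif2s3y was well above background on those 4 (1.04 to 1.17) and not on these 2. The brightest probes of the Y-linked Uty and Ddx3y went with Eif2s3y. The brightest probe of the Y-linked Kdm5d was well above background on all 6 arrays (-1.07 to -0.89), and a dimmer one only on those 4. The differences of the 14 probes and of the further gene lists were refitted without the 2 arrays with Xist signal. The sort markers Ly6a, Itgb1, Ptprc and Itgam were all well above background on all 6 arrays, although the sort selected against cells with Ptprc (CD45) or Itgam (CD11b). By their brightest probes they had log2 differences of -0.09, -0.08, 0.20 and 0.12. In 4 dimmer Ptprc probes all KO values lay above the WT values (12.6% of all probes), with differences of 0.25 to 0.52 (limma adjusted p from 0.138 to 0.312). All 13 macrophage markers were well above background on all 6 arrays, with a mean log2 signal over the list of 4.93 to 5.06 on KO arrays and 4.76 to 5.01 on WT arrays, which overlap. Of the 9 stromal markers 8 were well above background on all 6 arrays, with a mean of 0.97 to 1.20 in KO and 1.07 to 1.30 in WT. Of the 5 endothelial markers 1 was, and Cdh5 and Tek were not well above background on all arrays of either group.

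None of the 14 probes passed the test between KO and WT cells (limma, Benjamini-Hochberg adjusted p under 0.05). Over all tested probes, 17 of 28607 (0.0594%) passed. Leaving out WT replicate 1 made this 2, leaving out WT replicate 2 made it 4, and leaving out WT replicate 3 made it 31. The smallest adjusted p among the 14 was 0.187, for the brighter Tead2 probe. At an unadjusted limma p under 0.05, 3 of the 14 were counted against 15.5% of all probes, and all 3 were lower in KO. Of all probes, 7.28% were lower and 8.24% higher by this rule. They were probes of Wwtr1, Tead2 and Ajuba. In 4 probes all 3 KO values lay below all 3 WT values (9.57% of all probes), these 3 and that of Amotl1, and in 0 they lay above (12.6%). Of the log2 differences, KO minus WT, 10 of 14 were negative (43.8% of all probes). The median over the 14 was -0.05, against 0.02 over all probes. With so few probes, several of them on 1 gene, these shares describe the 10 genes and are no test of them.

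**Figure D1:**
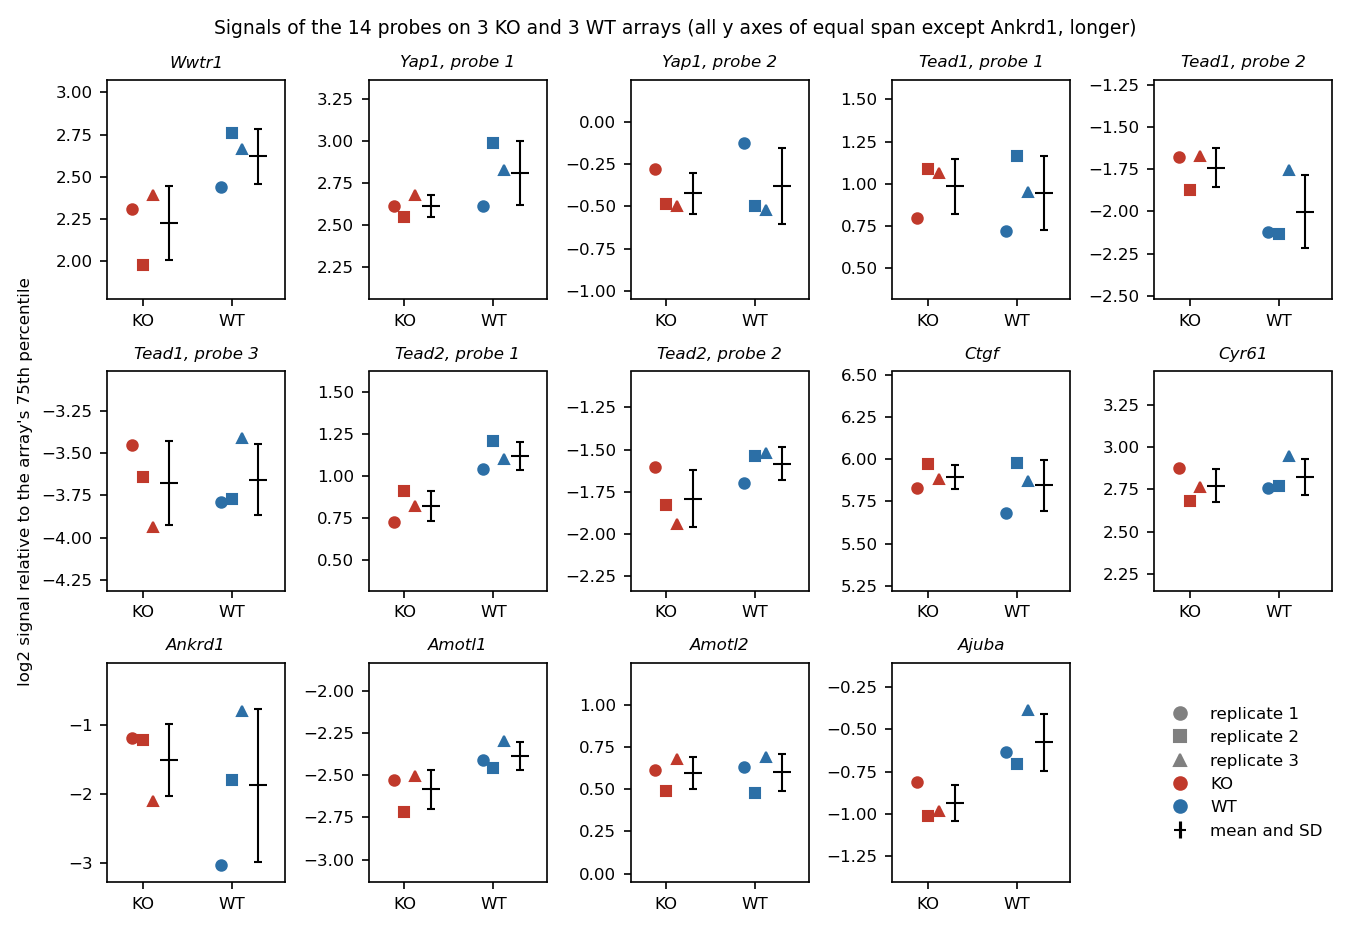
Log2 signal of each probe relative to the array's 75th percentile (y axis) on the 3 KO and 3 WT arrays (x axis), with symbols for the replicate numbers and bars for mean and SD. The KO values of Wwtr1, Tead2 probe 1, Amotl1 and Ajuba lie below the WT values, and Ankrd1, on a longer axis, is scattered from -3.03 to -0.79.

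Signals are given as log2 of the processed signal minus the 75th percentile of the array, a scale on which 1 unit is a factor of 2 and on which different probes cannot be ranked. Wwtr1 was the coactivator with the larger difference. Its probe (chromosome 3, 57262551 to 57262610, mm9, minus strand, position 1705 of its RefSeq transcript), whose first 30 bases are aggatgggttgtgcagaatgactttagaga, read 2.31, 1.98 and 2.39 on the KO arrays and 2.44, 2.76 and 2.66 on the WT arrays. The groups did not overlap, with KO replicate 3 just below WT replicate 1. Wwtr1 was 1.31-fold lower in KO (log2 difference -0.39, SE 0.14; 95% interval -0.73 to -0.06), which did not pass (limma adjusted p = 0.254). The difference was -0.27 without KO replicate 2, the lowest array, and -0.48 without KO replicate 3 or without WT replicate 1.

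Yap1, the paralogue of Wwtr1, had overlapping groups by both probes. The brighter one (chromosome 9, 7932025 to 7932084, minus strand) read 2.61, 2.55 and 2.68 in KO and 2.61, 2.99 and 2.83 in WT, so that WT replicate 1 sat among the KO arrays. Its log2 difference was -0.20 (SE 0.11; 95% interval -0.46 to 0.07; limma adjusted p = 0.459). The second probe, assigned to another Yap1 transcript at 7997029 to 7997088, read -0.28, -0.49 and -0.50 in KO and -0.12, -0.50 and -0.52 in WT. Its difference was -0.04 (SE 0.13; limma adjusted p = 0.922), with the KO values inside the range of the WT values. The difference of the brighter probe was -0.10 without WT replicate 2 and -0.29 without WT replicate 1.

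TEAD factors bring TAZ and YAP to DNA. Tead2, the family member known for its expression in early embryos, did not overlap between groups by its brighter probe. With this probe (chromosome 7, 52488930 to 52488989, plus strand; first bases caccttcctttccccaagagtgatggttta) Tead2 read 0.73, 0.91 and 0.82 in KO and 1.05, 1.21 and 1.10 in WT. It was 1.23-fold lower in KO (log2 difference -0.30, SE 0.09; 95% interval -0.50 to -0.09; limma adjusted p = 0.187). Its second probe, at 52487612 to 52487671, read -1.60, -1.83 and -1.94 in KO and -1.70, -1.54 and -1.52 in WT. There KO replicate 1 lay above WT replicate 1, and the difference was -0.21 (SE 0.11; limma adjusted p = 0.432), or -0.13 without KO replicate 3. Both probes thus had the same sign, with intervals that overlap.

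Tead1, a TEAD factor of heart, muscle and mesenchyme, was measured by 3 probes along 1 transcript, and they did not share 1 sign. The starts of the 3 probes are shown to tell them apart, in order of brightness.
Tead1 probe 1, position 9486 of the transcript: ttcaaaaggcatttggctaaacctcccggc
Tead1 probe 2, position 2518 of the transcript: gtcacaaaggaggaagacatcacccctcac
Tead1 probe 3, position 1846 of the transcript: tatatacacacacatatgtgcacacacaca
Probe 1 read 0.80, 1.09 and 1.06 in KO and 0.72, 1.16 and 0.95 in WT, with a difference of 0.04 (SE 0.14; 95% interval -0.29 to 0.37; limma adjusted p = 0.928). Probe 2 read -1.68, -1.87 and -1.67 in KO and -2.12, -2.13 and -1.75 in WT, with a difference of 0.26 (SE 0.13; 95% interval -0.04 to 0.57; limma adjusted p = 0.394). Of the WT arrays, only replicate 3 reached the KO values. Probe 3, which begins with a run of alternating bases, read -3.45, -3.64 and -3.94 in KO and -3.79, -3.77 and -3.41 in WT, and was well above background on 2 of 3 KO arrays. Its difference was -0.02 (SE 0.16; limma adjusted p = 0.972).

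Ctgf and Cyr61, also written Ccn2 and Ccn1, encode secreted matricellular proteins and are the most widely used readouts of TAZ and YAP activity. Both were well above background on all 6 arrays and neither differed beyond the spread between arrays. Ctgf (chromosome 10, 24318281 to 24318340, plus strand) read 5.83, 5.97 and 5.88 in KO and 5.68, 5.98 and 5.87 in WT. All KO values lay within the WT range, the log2 difference was 0.05 (SE 0.10; limma adjusted p = 0.865), and its 95% interval corresponds to 0.877 to 1.22 times the WT level. Cyr61 (chromosome 3, 145310187 to 145310246, minus strand) read 2.88, 2.68 and 2.76 in KO and 2.76, 2.77 and 2.95 in WT. Its difference was -0.05 (SE 0.09; limma adjusted p = 0.839), with an interval of 0.828 to 1.12 times the WT level. For these 2 targets a change in either direction as large as the 1.31-fold difference of Wwtr1 lay outside the 95% interval of the difference.

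Ankrd1 encodes a nuclear ankyrin-repeat protein of stretched muscle and is another standard target. It was the most scattered of the 10 genes: its probe (chromosome 19, 36186809 to 36186868, minus strand) read -1.19, -1.22 and -2.11 in KO and -3.03, -1.80 and -0.79 in WT. The lowest and the highest value both came from WT, 2.24 units apart, and the SD within groups, 0.87, was higher than that of 99.3% of tested probes (median 0.14). The log2 difference of 0.37 (SE 0.56; limma adjusted p = 0.807) had an interval from 0.513 to 3.26 times the WT level, so that neither a fall nor a rise of 1.5-fold was outside it. It was -0.21 without WT replicate 1 and 0.91 without WT replicate 3.

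**Figure D2:**
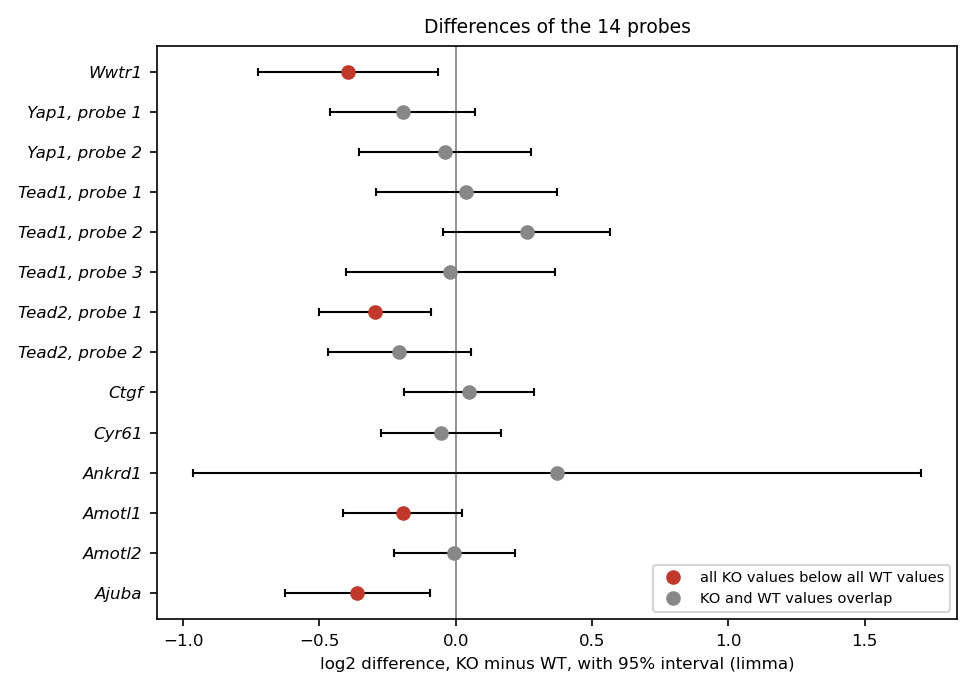
Log2 differences, KO minus WT, of the 14 probes (x axis) with their 95% intervals from limma, grouped by gene down the page. Red points mark the 4 probes whose KO values all lie below the WT values; the interval of Amotl1 (-0.41 to 0.02) includes 0 and those of Wwtr1, Tead2 probe 1 and Ajuba do not.

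The adaptors bind YAP, TAZ or the LATS kinases in the cytoplasm and at junctions, and Amotl2 and Ajuba have been tied to the pathway both as regulators and as targets. Ajuba, a LIM-domain protein that binds LATS kinases, read -0.81, -1.02 and -0.98 in KO and -0.64, -0.71 and -0.39 in WT (chromosome 14, 55186812 to 55186871, minus strand; first bases ggaagctggagagaagaaaaataggttgac). The groups did not overlap, and Ajuba was 1.28-fold lower in KO (log2 difference -0.36, SE 0.11; 95% interval -0.62 to -0.10; limma adjusted p = 0.210). It was the 1 gene of the 10 with an unadjusted limma p under 0.05 under each of the 15 other settings tried, where its adjusted p ran from 0.104 to 0.383. The brighter Tead2 probe had such a p under 14 of the 15 and Wwtr1 under 10. The settings all reuse the same arrays.

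Amotl1 and Amotl2 encode angiomotin-like scaffolds that hold YAP at tight junctions and actin. Amotl1 (chromosome 9, 14351949 to 14352008, minus strand) read -2.53, -2.72 and -2.51 in KO and -2.41, -2.46 and -2.29 in WT. The groups did not overlap, and the difference was -0.19 (SE 0.09; limma adjusted p = 0.375), or -0.13 without KO replicate 2. Amotl2 (chromosome 9, 102635025 to 102635084, plus strand) read 0.62, 0.49 and 0.68 in KO and 0.63, 0.48 and 0.69 in WT. The 2 groups covered almost the same values, with a difference of 0.00 (SE 0.09; limma adjusted p = 0.988) and an interval of 0.855 to 1.16 times the WT level.

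Further genes of the pathway were read at the brightest tested probe of each gene. Among the Hippo kinases and their regulators, 17 of 18 were tested, 0 passed limma (0.0781% of 15371 genes) and 1 had an unadjusted p under 0.05 (15%). The median difference was 0.03, against 0.02 over all genes. The 1 was Wwc2, a relative of the LATS activator KIBRA, with 2.19, 2.13 and 2.11 in KO and 2.33, 2.53 and 2.56 in WT (log2 difference -0.33, SE 0.09; limma adjusted p = 0.167), and -0.27 by a second probe. Lats2, which is both a kinase of the pathway and a target, had a difference of -0.14 without overlap (limma adjusted p = 0.410), and its 2 other probes gave -0.15 and 0.00. Taok3, an upstream kinase, had 0.31 (SE 0.14; limma adjusted p = 0.345), with 0.09 to 0.36 by its other probes. Csnk1d, a casein kinase that marks TAZ for degradation, had 0.16, but -0.05 and -0.18 by its other probes. Stk3 and Stk4, which encode MST2 and MST1, had 0.03 and 0.01, and Lats1 had 0.01.

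Of 6 other TEAD and VGLL factors, 3 were tested and 0 had an unadjusted limma p under 0.05 (15% of all genes). They were Tead3 (-0.10), Vgll3 (0.17) and Vgll4 (-0.02, and 0.25 by a second probe), the VGLL proteins being TEAD cofactors that compete with YAP. Of 8 other junction and LIM adaptors, all 8 tested, 0 had an unadjusted p under 0.05 at the brightest probe (15% of all genes), and the median was 0.00. The smallest p values included those of Ptpn14, a phosphatase that binds YAP (-0.21), Tjp1, the tight junction scaffold ZO-1 (-0.38), and Limd1 (0.18, and -0.42 by a second probe). A dimmer Tjp1 probe had -0.55 and a dimmer Ptpn14 probe -0.36, with a limma adjusted p of 0.179 and 0.191. Each had all KO values below the WT values, as did 9.57% of all probes.

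Of 18 other YAP and TAZ targets, a list known from human cells, 17 were tested, 0 passed limma and the median was 0.00. By unadjusted p under 0.05, the list held 3 genes lower in KO (8.03% of all genes) and 1 higher (6.94%). Nt5e, which encodes the stromal ecto-enzyme CD73, had the largest difference of the list. It read -1.08, -1.70 and -0.87 in KO and -0.10, 0.27 and -0.18 in WT, without overlap (log2 difference -1.21, SE 0.23; limma adjusted p = 0.0932). Fjx1, the relative of fly four-jointed, had -0.68 (SE 0.17; limma adjusted p = 0.142) and Ccdc80, a matrix protein, -0.50 (SE 0.13; limma adjusted p = 0.158). Gadd45a, a stress-response gene, was the higher one (0.24, SE 0.09; limma adjusted p = 0.296). Axl and Asap1, also in the list, had differences of 0.00 and 0.01.

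SRF and its cofactors answer to actin as YAP and TAZ do. Of 11 SRF and actin genes, 11 were tested, 0 passed and 1 had an unadjusted limma p under 0.05 (15% of genes), the cofactor gene Mrtfb (0.21, SE 0.08; limma adjusted p = 0.275). Of the 11, 1 had a negative difference (44.2% of genes), and the median was 0.13, against 0.02 over all genes. Mrtfa had 0.17 (-0.18 by a second probe), the myosin light chain gene Myl9 0.16, and Tpm1 -0.22, whose 4 probes ran from -0.56 to 0.19.

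**Figure D3:**
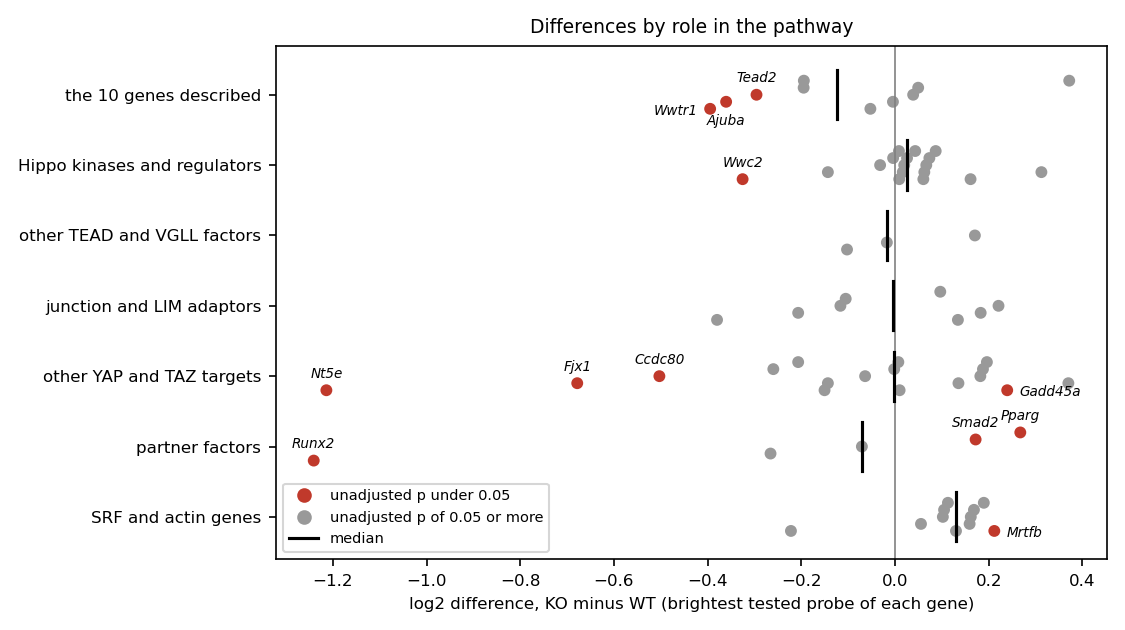
Log2 differences, KO minus WT (x axis), of the 10 genes and of the 6 further lists (rows), 1 point per gene by its brightest tested probe, with the median as a line. Red points have an unadjusted limma p under 0.05, which holds for 15% of all genes, and Nt5e and Runx2 lie farthest from 0.

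Among the partner factors of TAZ, 5 of 7 were tested and 0 passed limma, with 1 lower (8.03% of genes) and 2 higher (6.94%) in KO at an unadjusted p under 0.05 and a median of -0.07, against 0.02 over all genes. Runx2, the transcription factor that starts osteoblast formation, read -1.39, -2.19 and -1.18 in KO and -0.31, -0.27 and -0.45 in WT by its brightest probe (log2 difference -1.24, SE 0.25; limma adjusted p = 0.101), while its other 2 probes gave -0.75 and 0.07. Pparg, which directs adipocyte formation, read 2.92, 3.11 and 2.79 in KO and 2.71, 2.64 and 2.67 in WT (log2 difference 0.27, SE 0.10; limma adjusted p = 0.273). By these probes, KO replicate 2 had the lowest Wwtr1, the lowest Runx2 and the highest Pparg value of the 6 arrays. KO replicate 3 was lowest by both other Runx2 probes, and by the one with -0.75 KO replicate 2 (-3.36) was the highest of the KO arrays. KO replicate 2 also had the lowest mean over all osteoblast markers (1.67) and the highest over all adipocyte markers (1.63), lists given below. These lists hold Runx2 and Pparg themselves, so their means are not separate from the values above, and all of this rests on 1 array. A link of Wwtr1 to Runx2 or Pparg was not tested. Smad2 and Smad3, signal carriers of TGF-beta that TAZ binds, had 0.17 (-0.08 by a second probe) and -0.27 (-0.36 by a second probe), and Smad4 -0.07.

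All 10 osteoblast markers and 4 of 6 adipocyte markers were separated between the groups on the same arrays. Of 10 osteoblast markers, 9 had all KO values below the WT values (10.4% of genes) and 1, Spp1, above (12%), and Ibsp passed limma (adjusted p = 0.0496). Ibsp passed under 5 of the 15 other settings, with an adjusted p of 0.0155 to 0.172 and a difference of -1.83 to -1.60. Col1a1 had -0.90 by its brightest probe and -0.21 and -0.14, with overlap, by its other tested probes. Their mean log2 signal was 1.67 to 2.49 on KO arrays and 3.40 to 3.78 on WT arrays. Of 6 adipocyte markers, 4 had all KO values above the WT values (12% of genes) and 0 passed limma. Cebpa (0.07) and Adipoq (-0.41, well above background on 1 of 3 KO arrays) overlapped. The mean signal over the 6 was 1.33 to 1.63 on KO arrays and 1.11 to 1.31 on WT arrays. Runx2 is in the first of these lists and Pparg in the second. The mean over 5 tested smooth muscle markers was 2.62 to 2.95 on KO arrays and 3.04 to 3.15 on WT arrays, but only Cspg4 did not overlap (-1.56, limma adjusted p = 0.110), and the median difference of the list was 0.06. In such bulk cultures fewer cells of a type and less RNA per cell cannot be told apart. The part of these markers in the differences of Wwtr1, Tead2, Ajuba and Nt5e was not tested.

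The genes whose pattern over the 6 arrays was most like that of Wwtr1 were sought among 22305 probes that carried a gene symbol and were well above background on all arrays, by the root mean square difference after each was centred on its own mean. They were Plod2, a lysyl hydroxylase of collagen (0.0381 log2 units), Auts2 (0.0386) and Serpinh1, the collagen chaperone HSP47 (0.0387). The centred Wwtr1 values themselves had a root mean square of 0.25. Plod2 had a log2 difference of -0.44, Auts2 of -0.36 and Serpinh1 of -0.39, close to that of Wwtr1 by the choice of these genes, and none passed limma (adjusted p = 0.234, 0.261 and 0.215).

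Without KO replicate 1 and WT replicate 3, the arrays with Xist signal, 0 of the 14 probes passed limma and 24 of 28855 did over all probes. Differences were then -0.42 for Wwtr1, -0.33 for Ajuba, -0.26 for the brighter Tead2 probe, -0.18 for Amotl1, 0.10 for Ctgf, -0.04 for Cyr61 and 0.75 for Ankrd1. An unadjusted limma p under 0.05 remained for Ajuba (0.0283) and appeared for Tead1 probe 2 (0.0345, difference 0.36), and the p of Wwtr1 was 0.0879. Of all probes, 12.1% then had an unadjusted limma p under 0.05. Of the 6 further lists, 0 genes passed limma without these arrays. The difference was -1.37 for Nt5e, -1.39 for Runx2, 0.28 for Pparg and -0.31 for Wwc2. All 10 osteoblast markers kept their sign, with a median of -1.61, but 0 of them passed limma, with an adjusted p of 0.122 for Ibsp.

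**Figure D4:**
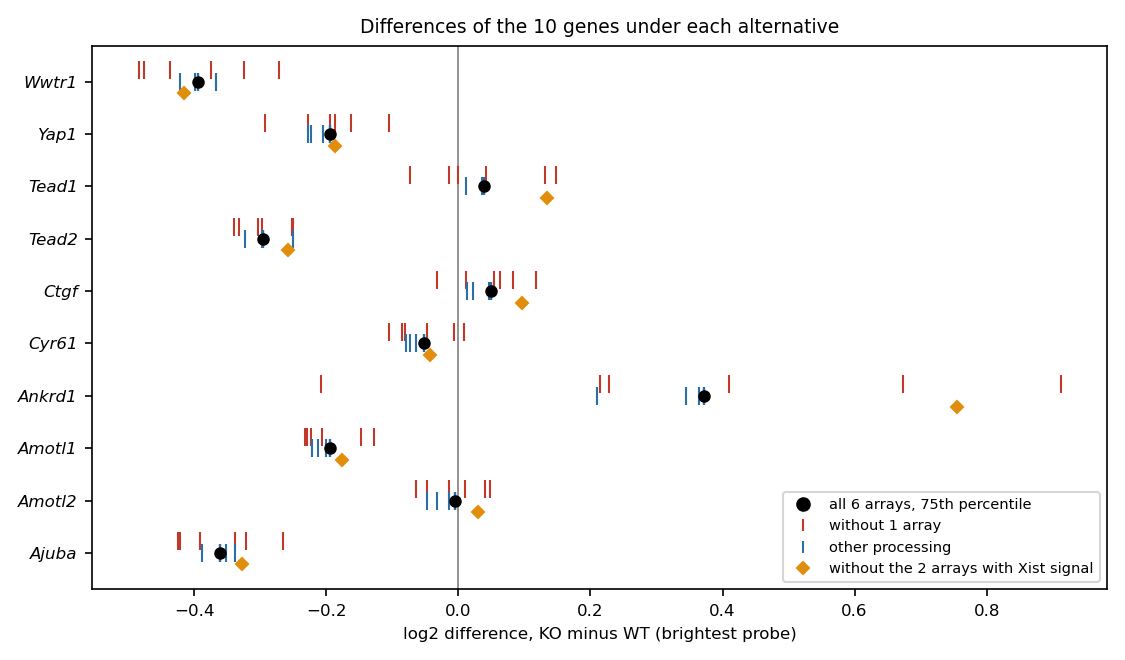
Log2 differences, KO minus WT (x axis), of the brightest probe of each of the 10 genes (rows), with all 6 arrays (black), without 1 array (red), with other processing (blue) and without the 2 arrays with Xist signal (orange). Wwtr1, Yap1, Tead2, Amotl1 and Ajuba stay below 0 under all 15 alternatives, while Tead1, Ctgf, Cyr61, Ankrd1 and Amotl2 lie on both sides of 0.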

How the data were processed

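The 6 arrays held 62976 spots each. Their deposited intensity values are background-corrected processed signals, mean signals and local backgrounds from Agilent Feature Extraction 10.7.1.1, per the file headers, while the submitters' processing notes name version 9.1. The deposited series table holds log2 values whose 6 columns share a median of 6.15. Across the probes well above background on each array, they correlated with the log2 processed signals at r of 0.99994 to 1. Its further steps are not given in the sources used here, and it served as an alternative. Probe positions are mm9, per the file headers.

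For this report, log2 processed signals minus each array's 75th percentile over non-control spots were used, without spots marked as outliers (49 to 131 per array). Tested probes had 2 or more values in both KO and WT and were well above background on all arrays of 1 of them. KO and WT were compared with limma 3.58.1 in R 4.3.3 (group as the only term, two-sided, 4 residual and 2.65 prior degrees of freedom), with Benjamini-Hochberg adjustment over 28607 probes. On simulated data for KO against WT with 28607 probes, of which 200 were changed, 140 were recovered at a log2 change of 1 with 6 false calls. At a change of 2, 189 were recovered with 6 false calls. The simulated noise was independent between probes. Changes as small as those of the 10 genes, such as -0.39 for Wwtr1, were not simulated, so recovery at such sizes was not tested. Where a gene had several tested probes, the brightest on average stands for it. Symbols of the further genes came from accessions or names in a RefSeq table for GRCm38.p6 (32994 probes by accession, 10224 by symbol, 520 by synonym). Without a match there, 2574 probes kept the gene name written in the array files. Every probe of the 10 genes is reported, and of each further list the up to 4 genes with the smallest p, of which 1 is not reported here. Genes named outside this rule (Stk3, Stk4, Lats1, Axl, Asap1, Smad4) were chosen after their values were seen. The 10 genes and the lists were chosen with earlier results of these data known. Precision is limited by 3 arrays per group. The description and extraction fields of the labels speak of human blood, and the titles, source names and organism field of mouse stromal cells were followed.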

Additional observations from a re-analysis of the deposited data

How the results depend on the processing

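Under the 15 alternatives 0 of the 14 probes passed limma, with 2 to 5 of them at an unadjusted p under 0.05, against 12.1% to 31.8% of all probes. Over all probes, where 17 passed, the count was 220 when limma's variance trend was used, 215 after normexp and quantile steps, 101 after centring on medians and 9 among probes well above background on all 6 arrays. It was 0 without the filter on dim probes (18002 of 56605 at an unadjusted limma p under 0.05), 0 with Xist signal as a second term (4617) and 0 with the replicate number as a block (4648), and between 2 and 31 without 1 array. Of 212 values of the 10 genes under alternatives, 199 kept their sign and side of the threshold and 13 changed sign. The changes of sign came from leaving out arrays, where the differences ran from -0.11 to 0.0903 for the second Yap1 probe, from -0.0731 to 0.15 for Tead1 probe 1, from -0.13 to 0.11 for Tead1 probe 3, from -0.0319 to 0.12 for Ctgf, from -0.10 to 0.0082 for Cyr61, from -0.21 to 0.91 for Ankrd1 and from -0.0644 to 0.0482 for Amotl2, which was 0.0304 without the 2 arrays with Xist signal. The cause was not tested. When probes were averaged per gene, Yap1 had -0.12, Tead1 0.09 and Tead2 -0.25. Arrays with the same replicate number deviated together with r of 0.06, 0.15 and -0.03 for numbers 1, 2 and 3 across probes. KO and WT arrays with different numbers had r from -0.24 to 0.18, and the numbers were not taken to pair the arrays. These r values are tied to each other, since deviations within a group sum to 0, so they are a weak check of pairing. With the replicate block the unadjusted p of Wwtr1 was 0.0539, that of Ajuba 0.0251 and that of the brighter Tead2 probe 0.00971, with limma adjusted p of 0.313, 0.254 and 0.206. Slide as a block was not run, since all arrays lay on 1 slide.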
